A study of Mus musculus with 24 samples.

Results

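Neurons release transmitter when vesicles fuse with the plasma membrane, and the genes described here encode the proteins that carry out and regulate that fusion. They were chosen by symbol from the tables of both tissues and comprised the synaptotagmins (Syt), syntaxins (Stx), vesicle-associated membrane proteins (Vamp), synapsins (Syn), Snap genes, syntaxin-binding proteins (Stxbp), complexins (Cplx), SV2 glycoproteins and RIM proteins (Rims). The rule found 63 of the 22562 genes listed for each tissue. It used names alone, so no measured value took part in the choice. Some members carry a name of the group but act elsewhere. Snap91 encodes a clathrin assembly protein of vesicle recycling, and several syntaxins and Vamp proteins serve internal membranes in all cell types.

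Fusion is driven by SNARE proteins, with Vamp on the vesicle and a syntaxin and Snap25 on the plasma membrane zipping into a single bundle. Complexin clamps the bundle, and a synaptotagmin on the vesicle senses the incoming calcium. RIM proteins hold vesicles and calcium channels together at the release site. In the mouse, Syt1 is the fast sensor of most forebrain synapses and Syt2 that of many hindbrain synapses, including inhibitory synapses of the cerebellum.

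Total RNA came from whole cerebellum and whole cortex, in 24 libraries. Cerebellum was sampled in 4 Control libraries, 2 Aptx-/- libraries, 2 Atm Nes-cre libraries and 6 double-mutant libraries (Atm Nes-cre; Aptx-/-), and cortex in 4 Control and 6 double-mutant libraries. Aptx was absent from the germ line, whereas Atm was conditional and was deleted by Nestin-cre, which acts in neural progenitors, so that neurons and most glia but not blood-derived cells carry the deletion. The study's text also writes the Atm single mutant as Atm-/-, and the genotype of the labels is used here. The labels give the controls no allele or cre status, and no single mutant was sampled in cortex. The mice were 10 to 12 months old. The labels name samples and not animals, so p-values measure the spread between these samples. Double mutants of the 2 tissues share a code in the labels, and the main fit across tissues did not pair them.

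Levels are FPKM, fragments scaled by the authors to library size and to transcript length. The read depth behind them is unknown. Differences are log2 differences of FPKM + 1 from limma, so they understate the change of genes at a few FPKM. A gene was called at a Benjamini-Hochberg adjusted p below 0.05 over all genes tested, and "rose" and "fell" refer to such calls. Of the 63 members, 58 passed the filter on low values in cerebellum and 57 in cortex. Cplx4, Stx11, Syt15 and Syt8 passed in neither tissue. Cplx3 missed the filter in cerebellum, and Stx19 and Vamp5 missed it in cortex.

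Several facts of the libraries touch these results. Values of the controls and of double mutant 6 carried more digits than those of all other libraries, as described under processing. Aptx stood at 2.09 to 2.86 FPKM in the cerebella with the Aptx-/- genotype and at 3.11 to 3.67 elsewhere, whereas Atm was not lower in Atm Nes-cre cerebella (7.45 to 8.22 FPKM in Atm Nes-cre alone, 6.75 to 7.13 in controls). Cre removes only part of the Atm gene, so this gene-level value does not check that label. The FPKM of all genes summed to between 229937 and 247730 in cerebella and to between 239529 and 554380 in cortices. The uncharacterised gene Gm10654 stood at 4221, 7289, 2951 and 322070 FPKM in cortical controls 1 to 4. It was 0.0133 to 1.83 FPKM in cortical double mutants and at most 1.90 in cerebella. Y-linked Ddx3y was under 1 FPKM in every control. It was 26.5 FPKM in Aptx-/- library 1 and 24.7 to 28.9 in cerebellar double mutants 2, 3 and 5, but 2.30 in double mutant 6. In cortex double mutants 2, 3 and 5 stood at 19.9 to 21.5 FPKM and double mutant 6 at 8.24. The study used mice of either sex, and here sex and genotype cannot be fully told apart, so a covariate for Ddx3y was tried. Marker lists of other cells differed between the groups. In cerebellum the summed level of 10 brain stem and deep nuclear markers was 33.9 to 56.5 FPKM in controls and 22.2 to 33.1 in double mutants (3 of 5 tested fell). Hoxb3, Hoxb5, Hoxb2 and Chat were each under 1 FPKM in all of these libraries. In cortex that sum was 41.3 to 48.5 FPKM in controls and 19.5 to 36.9 in double mutants (2 of 3 tested fell). The sum of 8 granule cell markers was 673 to 828 FPKM in cerebellar controls and 850 to 1008 in double mutants (5 of 8 rose), and that of 8 astrocyte markers was 587 to 637 and 718 to 787 (4 of 8 rose). Their part in the cerebellar results was not tested. The sum of 5 pituitary markers was 9.92 to 155 FPKM in cerebellar controls and at most 8.92 in cerebellar mutants, and 4.74 to 88.0 in cortical controls and at most 1.66 in cortical double mutants, with Cga and Lhb under 1 FPKM throughout. In cortex the sum of 7 oligodendrocyte markers was 911 to 1029 FPKM in controls and 479 to 775 in double mutants (6 of 7 fell), and that of 9 excitatory neuron markers was 395 to 480 and 581 to 726 (8 rose and 1 fell). The sum of 9 inhibitory interneuron markers was 327 to 356 FPKM in cortical controls and 409 to 421 in double mutants (3 of 8 tested rose). Over all genes tested, 22.3% were called higher and 10.1% lower in double-mutant cerebellum, and 24.3% and 14.5% in double-mutant cortex. In bulk tissue, fewer cells of a type and less RNA per cell cannot be told apart.

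The promoters of the 6 members on which the results below turn are shown first. Each sequence is the 250 bases before the most upstream RefSeq start of the gene in GRCm38.p6, on the strand of the gene, and the capitals mark the GC box GGGCGG or its reverse complement CCGCCC, which Sp-family factors bind. The windows lie at chr5:135023232-135023481 (Stx1a, plus strand), chr3:103574995-103575244 (Syt6, plus), chr6:125215331-125215580 (Vamp1, plus), chr1:134646362-134646611 (Syt2, plus), chr10:109010976-109011225 (Syt1, minus) and chr13:96132578-96132827 (Sv2c, minus).
Stx1a: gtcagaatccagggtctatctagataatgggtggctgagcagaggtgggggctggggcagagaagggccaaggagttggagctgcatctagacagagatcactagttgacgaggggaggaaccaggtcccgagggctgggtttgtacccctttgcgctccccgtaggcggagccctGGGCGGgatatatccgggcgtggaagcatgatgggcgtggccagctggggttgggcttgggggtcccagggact
Syt6: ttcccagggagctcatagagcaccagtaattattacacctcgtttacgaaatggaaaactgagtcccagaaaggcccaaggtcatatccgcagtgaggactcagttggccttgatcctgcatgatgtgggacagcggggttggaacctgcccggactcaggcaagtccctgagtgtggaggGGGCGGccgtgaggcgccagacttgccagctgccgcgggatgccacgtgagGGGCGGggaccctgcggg
Vamp1: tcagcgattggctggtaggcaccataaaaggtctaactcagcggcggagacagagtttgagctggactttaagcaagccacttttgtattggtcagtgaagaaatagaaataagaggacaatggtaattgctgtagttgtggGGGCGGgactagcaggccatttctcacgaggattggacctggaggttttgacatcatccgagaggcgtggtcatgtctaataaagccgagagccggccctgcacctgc
Syt2: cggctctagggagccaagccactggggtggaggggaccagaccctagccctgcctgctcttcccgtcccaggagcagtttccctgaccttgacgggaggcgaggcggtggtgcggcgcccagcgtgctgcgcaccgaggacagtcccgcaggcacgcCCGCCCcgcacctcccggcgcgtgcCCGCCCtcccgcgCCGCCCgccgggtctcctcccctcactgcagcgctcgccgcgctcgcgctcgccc
Syt1: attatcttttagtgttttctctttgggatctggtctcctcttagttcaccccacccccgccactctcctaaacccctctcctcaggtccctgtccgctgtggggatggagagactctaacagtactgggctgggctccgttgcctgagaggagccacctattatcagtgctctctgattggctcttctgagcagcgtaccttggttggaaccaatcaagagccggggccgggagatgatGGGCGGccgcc
Sv2c: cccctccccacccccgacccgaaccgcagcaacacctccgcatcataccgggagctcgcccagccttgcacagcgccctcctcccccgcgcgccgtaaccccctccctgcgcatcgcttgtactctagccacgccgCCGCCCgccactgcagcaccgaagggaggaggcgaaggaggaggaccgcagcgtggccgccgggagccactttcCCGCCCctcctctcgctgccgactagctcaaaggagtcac
All 6 windows held the box, once in Stx1a, Vamp1 and Syt1, 2 times in Syt6 and Sv2c, and 3 times in Syt2. The share of G and C ran from 50.4% in Vamp1 to 76.0% in Syt2. Of the 47 members with a window in the table, 31 (66.0%) held the box, as did 8907 (33.0%) of 27025 windows of all genes. Among members that rose in the double-mutant cerebellum 6 of 8 windows held it, and among those that fell 6 of 7. The median share of G and C was 62.4% in windows of members and 52.0% in those of all genes, which were not limited to genes tested here. The part of this base content in the box counts was not tested. A match is a description of the letters and does not show a bound site.

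Control tissue gave the baseline of each member. In control cerebellum the most abundant member was Snap25, the plasma membrane SNARE, at 297 ± 5.89 FPKM (SD, n = 4). It was followed by Rims2 at 130 ± 11.0, Cplx2 at 90.8 ± 9.77 and Cplx1 at 84.0 ± 15.1 FPKM. Snap25 and Rims2 stood above the rest without overlap, whereas the 2 complexins did not differ beyond their spread. In control cortex Snap25 (313 ± 17.7 FPKM) was followed by Syt1 (244 ± 16.7), Cplx2 (120 ± 5.24) and Cplx1 (99.0 ± 6.71). At the low end, Cplx4 stood at no more than 0.0329 FPKM and Syt8 at no more than 0.0365 FPKM in any of the 24 libraries. The summed FPKM of all 63 members was 1771 to 2015 in control cerebellum and 1778 to 1926 in double-mutant cerebellum, where the ranges overlapped. In cortex it was 2023 to 2260 in controls and 2391 to 2502 in double mutants, where they did not. The cortical FPKM of all genes without Gm10654 was also higher in double mutants, at 249147 to 256459 against 232311 to 239565 in controls. As a share of that total the members held 0.871% to 0.943% in cortical controls and 0.957% to 0.996% in double mutants.

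The next comparison set control cerebellum beside control cortex. Cortex held far more Stx1a and Syt1, and cerebellum far more Syt2 and Rims2. Of 59 members tested, 17 were higher in cerebellum and 27 higher in cortex. These 44 made up 74.6% of members, against 66.9% of all 13541 genes tested (37.9% higher in cerebellum and 29.0% higher in cortex). The tissues came in separate tables, each library scaled by the authors on its own. Libraries of the 2 control groups did not overlap for 41 of 59 members, against 60.8% of all genes.

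The largest difference toward cortex was that of Stx1a, the neuronal syntaxin. It was 1.30 to 3.03 FPKM in cerebellar and 34.1 to 40.4 in cortical controls (log2 difference -3.52, SE 0.12, adjusted p = 3.09e-16). Syt16, a synaptotagmin without calcium binding (-3.19), Syt5, a calcium-binding synaptotagmin (-3.09), Syt17 (-2.26), Stxbp6 or amisyn, a SNARE regulator (-1.95), and Syt1 (-1.71) followed. Toward cerebellum the largest differences were those of Syt2 (2.38), Rims2 (1.69), Syt12 (1.64), Syt9 (1.53), the endosomal Vamp8 (1.03) and Rims1 (0.71). For each of these 12 members the control libraries of the tissues did not overlap.

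**Figure D1:**
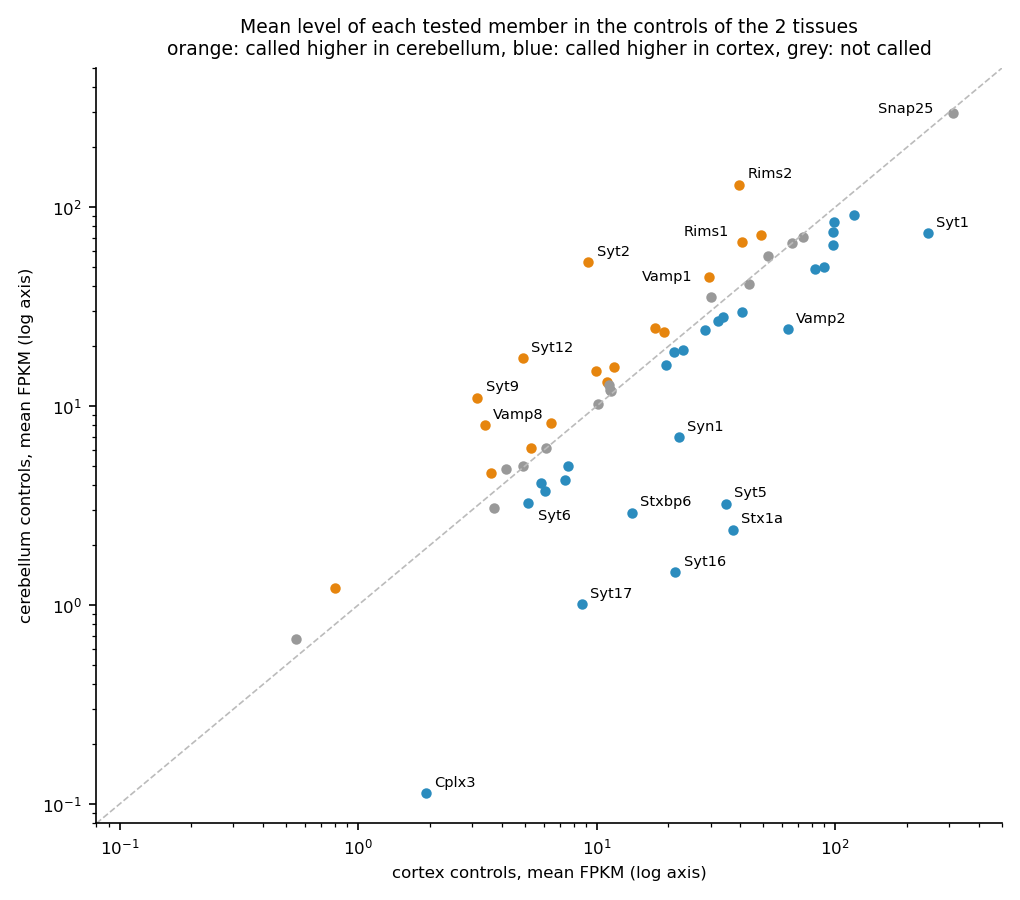
Mean FPKM of each of the 59 members tested in both tissues, in 4 control cerebella (vertical, log axis) against 4 control cortices (horizontal, log axis), with the dashed line marking equal levels. Orange points (17) were called higher in cerebellum and blue points (27) higher in cortex; Stx1a and Syt16 lie far toward cortex and Syt2 and Rims2 toward cerebellum.

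In double mutants 53 of 59 members differed between tissues (24 higher in cerebellum, 29 in cortex), which was 89.8% against 77.3% of all genes tested (46.0% higher in cerebellum and 31.3% higher in cortex). Rescaling each library to a common median moved the median of all genes in this comparison from 0.111 to 0.00896 on the log2 scale. The members then split into 20 higher and 31 lower. The difference of Stx1a was -5.09 (SE 0.10) in double mutants beside -3.52 in controls, and that of Syt6 was -2.26 beside -0.53. Groups did not overlap for 43 of 59 members, against 57.0% of all genes.

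The comparison of double-mutant with control cerebella asked how release genes stood in the tissue affected in the human ataxias caused by loss of ATM or APTX. The calcium sensor Syt6 and the syntaxin Stx1a fell most, Vamp1 and Syt2 fell as well, and Syt1 rose. Snap25, Vamp2, Cplx1 and Cplx2 were among the members not called. Of 58 members tested 9 rose and 9 fell. These 18 made up 31.0% of the members, against 32.4% of all 13277 genes tested (22.3% called higher and 10.1% called lower). The members' median log2 difference was 0.03 beside 0.06 for all genes. Groups did not overlap for 16 of 58 members, against 21.8% of all genes. With quantile normalization 8 members rose and 10 fell, and with rescaling to a common median 6 rose and 9 fell, while the share of higher calls over all genes went from 68.9% to 52.2% and 49.8%.

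Among the 8 calcium-sensing synaptotagmins 2 rose and 4 fell. Syt6 was 3.53, 3.27, 3.33 and 2.89 FPKM in cerebellar controls 1 to 4. It was 1.04 and 0.519 in the Aptx-/- libraries, 1.47 and 1.68 in the Atm Nes-cre libraries, and 0.199 (lowest), 0.381 (median) and 0.581 (highest) in the double mutants. Every mutant library lay below every control, and the double mutants also lay below both Atm Nes-cre libraries. The difference of double mutants from controls was -1.63 (SE 0.11, adjusted p = 1.74e-07, limma). No double mutant reached 1 FPKM, so Syt6 entered the test through the other groups.

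Syt1 and Syt2, the fast sensors of release, went opposite ways. Syt1 was 72.1, 76.3, 75.8 and 70.6 FPKM in controls and 94.0, 99.6 and 103 (lowest, median, highest) in double mutants. No control overlapped with any mutant cerebellum, and the difference was 0.42 (SE 0.04, adjusted p = 1.82e-05). Syt2 was 46.0, 67.8, 51.7 and 46.6 FPKM in controls and 29.8, 38.7 and 43.4 in double mutants. Control 2 was the highest, the groups did not overlap, and Syt2 fell by 0.46 on the log2 scale (SE 0.11, adjusted p = 0.00655). The share of Syt1 in the summed FPKM of the pair was 53.0% to 61.0% in controls and 68.7% to 77.3% in double mutants.

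Syt5 (-0.48, adjusted p = 0.0342) and Syt3 (-0.38, adjusted p = 0.0107) fell too, and Syt10, which in mouse olfactory neurons controls release of a growth factor, rose (0.30, adjusted p = 0.00782). The Syt5 call was lost without any 1 of 7 of the 10 libraries (adjusted p = 0.0526 to 0.111; double mutants 1, 2, 5 and 6 and controls 1 to 3) and with the Ddx3y covariate (0.117). Syt7 and Syt9 were not called.

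Of the 7 other synaptotagmins tested, which lack full calcium binding, Syt13 and Syt16 fell and 5 were not called. Syt13 was 28.1, 30.7, 26.7 and 26.8 FPKM in controls and 14.9, 18.7 and 21.7 in double mutants. The groups did not overlap (-0.56, SE 0.09, adjusted p = 0.000471). Syt16 was low in cerebellum, at 1.69, 1.15, 1.83 and 1.21 FPKM in controls and 0.334, 0.447 and 1.21 in double mutants. Double mutant 4, at 1.21 FPKM, stood within the controls and the other 5 at 0.546 or less stood below them (-0.68, SE 0.14, adjusted p = 0.00306). Only the controls and double mutant 4 reached 1 FPKM, so Syt16 entered the test through the group where it was high. Syt16, Syt5 and the Golgi syntaxin Stx5a were the called members whose groups overlapped, and in each it was double mutant 4 that lay within the controls.

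**Figure D2:**
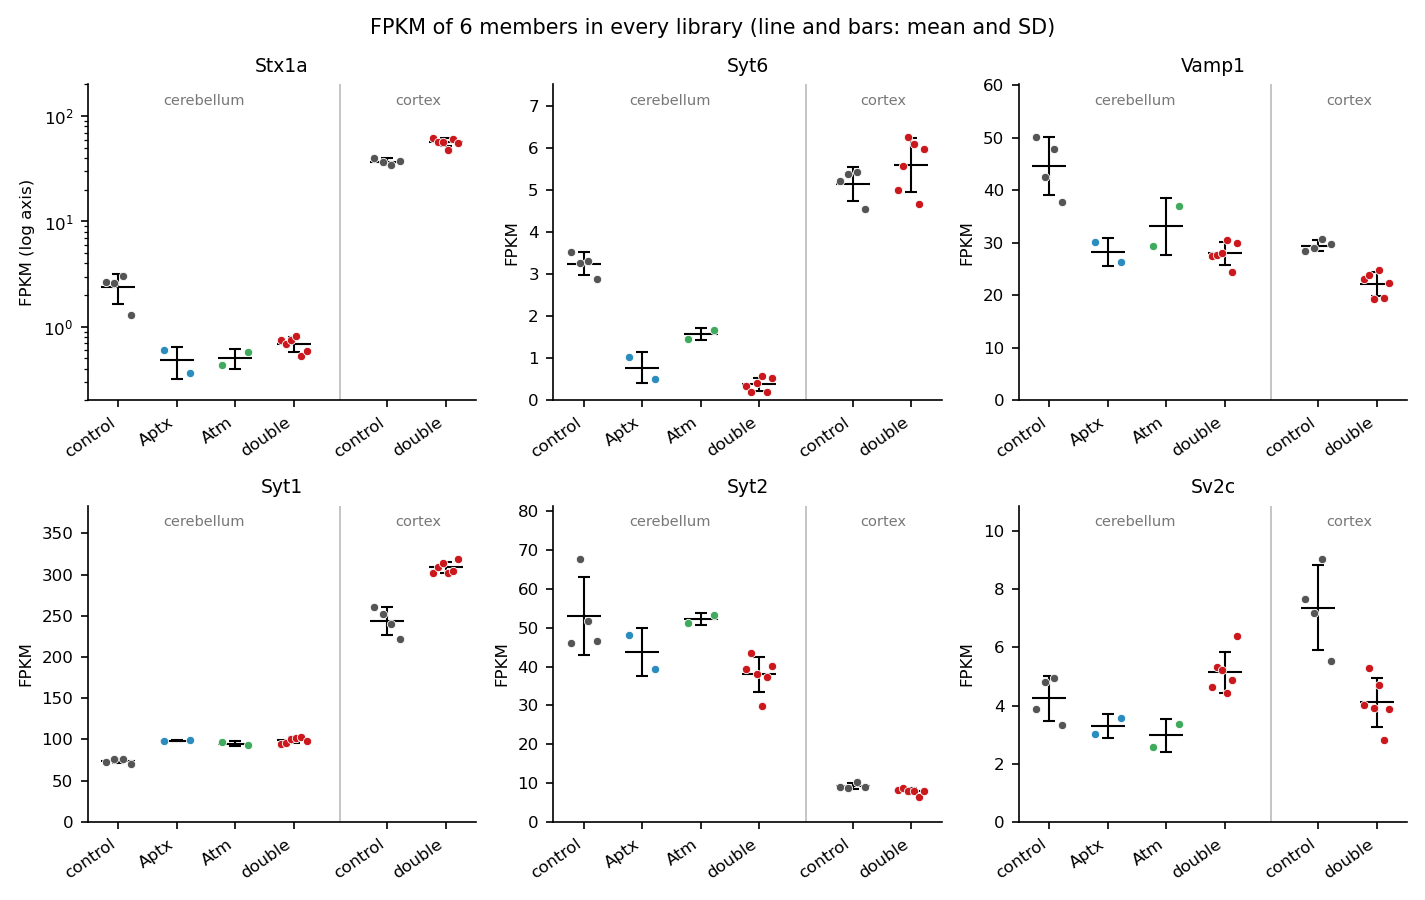
FPKM of Stx1a, Syt6, Vamp1, Syt1, Syt2 and Sv2c (1 panel each; the Stx1a axis is logarithmic) in every library of each group, with points for libraries and lines and bars for mean and SD. In cerebellum the mutants lie below all controls for Stx1a, Syt6 and Vamp1 and above them for Syt1, and in cortex Stx1a of double mutants (47.8 to 62.1 FPKM) lies above controls (34.1 to 40.4).

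Of the 6 plasma membrane syntaxins tested 1 rose and 1 fell. Stx1a was 2.64, 2.61, 3.03 and 1.30 FPKM in cerebellar controls 1 to 4. It was 0.601 and 0.367 in the Aptx-/- libraries, 0.431 and 0.579 in the Atm Nes-cre libraries, and 0.524, 0.714 and 0.824 (lowest, median, highest) in double mutants. Control 4 was the lowest control and still above all 10 mutant libraries (-0.98, SE 0.13, adjusted p = 0.000135). Only the controls reached the filter of 1 FPKM, so Stx1a entered the test through the group where it was high. Stx3, a syntaxin known from ribbon synapses of the retina, was 15.2 to 16.2 FPKM in controls and 19.5 to 22.02 in double mutants and rose by 0.41 (SE 0.04, adjusted p = 2.41e-05).

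Because Stx1a, Syt16 and Syt5 were far higher in control cortex, markers of cortical excitatory neurons were read beside them. The sum of 9 such markers was 60.3 to 96.5 FPKM in control cerebella and 59.4 to 75.4 in double mutants, where the ranges overlapped, and Tbr1 and Fezf2 were under 1 FPKM in all 14 cerebella. Of the 6 tested 1 rose and 2 fell. The sum in cerebellum came mostly from the other markers of the list, so it cannot show whether RNA of cortical neurons differed. The pituitary and brain stem sums given above were lower in double mutants, and their part in these results was not tested.

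Of the 7 vesicle-associated membrane proteins tested 2 rose and 1 fell. Vamp1, whose loss in mice causes a lethal neurological disease, was 50.1, 42.5, 47.9 and 37.7 FPKM in controls and 24.4, 27.9 and 30.5 in double mutants. All double mutants lay below all controls (-0.65, SE 0.09, adjusted p = 0.000137). Vamp2, its paralogue at most forebrain synapses, was 23.4, 29.2, 25.5 and 19.5 FPKM in controls and 21.3, 25.0 and 28.2 in double mutants (0.04, 95% interval -0.16 to 0.24, adjusted p = 0.785). Vamp1 held 59.3% to 68.2% of the pair in controls and 51.4% to 56.0% in double mutants. The groups overlapped for Vamp2 and not for Vamp1 or the share. Vamp3, which serves recycling endosomes, rose by 0.29 (adjusted p = 0.00249). Vamp5, known from muscle, was 0.607, 0.460, 0.738 and 0.906 FPKM in controls and 1.05, 1.36 and 1.95 in double mutants. It rose by 0.53 (SE 0.12, adjusted p = 0.00369) without overlap. All controls were under the filter of 1 FPKM, so Vamp5 entered the test through the mutants, where it was high.

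**Figure D3:**
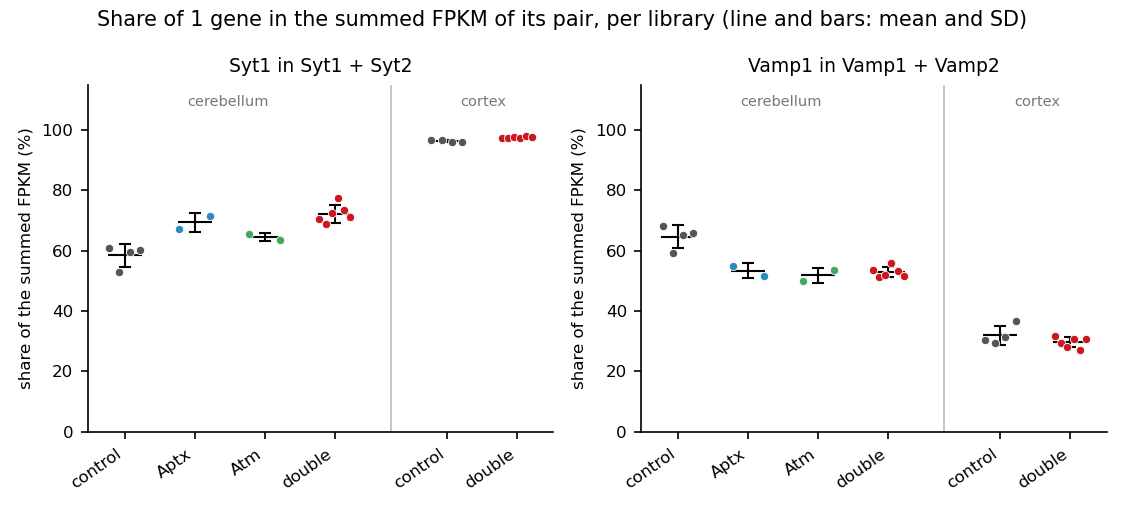
Share of 1 gene in the summed FPKM of its paralogue pair (percent) in every library, for Syt1 with Syt2 and Vamp1 with Vamp2, with points for libraries and lines and bars for mean and SD. In cerebellum the Syt1 share lies at 53.0% to 61.0% in controls and 68.7% to 77.3% in double mutants, and the Vamp1 share at 59.3% to 68.2% and 51.4% to 56.0%.

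Snap25, the most abundant member, was not called in cerebellum. It was 291, 300, 303 and 293 FPKM in controls and 283, 287 and 312 in double mutants (-0.03, 95% interval -0.13 to 0.07, adjusted p = 0.703). Double mutant 6 alone stood above the controls. Of the 5 Snap genes, Snap23, the widely expressed relative of Snap25, rose (0.21, adjusted p = 0.00847). That call was lost with rescaling to the median (adjusted p = 0.062). None of the 5 syntaxin-binding proteins was called by limma, and 1 had an unadjusted p below 0.05.

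Complexins clamp the fusion bundle until calcium enters. Cplx1 was 82.8, 104, 81.9 and 67.2 FPKM in controls and 68.1, 81.2 and 81.8 in double mutants (-0.11, 95% interval -0.32 to 0.11). Cplx2 was 88.1, 105, 82.4 and 87.6 FPKM in controls and 88.4, 103 and 112 in double mutants (0.17, 95% interval 0.01 to 0.34, adjusted p = 0.0972). Neither was called (limma, 1 of 2 with an unadjusted p below 0.05). Both groups overlapped for each gene, with control 2 the highest control.

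Synapsins tether vesicles in reserve, and SV2 proteins are vesicle glycoproteins. Syn1 was 6.63, 8.92, 7.33 and 4.995 FPKM in cerebellar controls and 5.37, 6.83 and 8.71 in double mutants (-0.01, 95% interval -0.28 to 0.26). Syn2 was 48.5, 58.2, 47.6 and 41.9 FPKM and 34.7, 43.9 and 49.9 (-0.16, 95% interval -0.38 to 0.06). The groups overlapped for both synapsins, and limma called 0 of 3 synapsins, with 0 at an unadjusted p below 0.05. Sv2a was 66.2, 85.1, 68.9 and 62.2 FPKM in controls and 55.6, 64.6 and 75.1 in double mutants (-0.12, 95% interval -0.31 to 0.07). Sv2b was 47.4, 50.1, 48.2 and 53.3 FPKM and 49.4, 51.0 and 58.5 (0.09, 95% interval -0.05 to 0.23). Of the 3 SV2 genes 0 were called by limma and 0 had an unadjusted p below 0.05.

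RIM proteins organise the release site, and Rims1 and Rims3 differed in opposite directions. Rims1 was 63.8, 68.0, 64.0 and 71.7 FPKM in controls and 75.3, 78.2 and 81.5 in double mutants. The groups did not overlap (0.23, SE 0.06, adjusted p = 0.0127), and the call was lost with rescaling to the median (adjusted p = 0.116). Rims3, which encodes a short form of RIM, fell by 0.48 (SE 0.11, adjusted p = 0.00497), from 30.8 to 41.8 FPKM in controls to 19.3 to 28.8. Among the 8 syntaxins of internal membranes, Stx12 of endosomes (0.21, adjusted p = 0.00614) and Stx5a of the Golgi (0.15, adjusted p = 0.0434) rose. The Stx5a call was lost without any 1 of 9 libraries (adjusted p = 0.0542 to 0.0966; all but double mutant 4).

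The single mutants set each lesion alone beside the controls. They share their 4 controls with the double mutants and have 2 libraries each. Nearly all values of the controls carried more than 10 digits and almost none of the single mutants did. Genotype and this difference of format cannot be told apart in these comparisons. Aptx-/- cerebella had lower Stx1a, Syt6, Vamp1 and Syt13 and higher Syt1 and Stx3. Of 58 members 6 rose and 6 fell, which was 20.7% against 15.6% of all genes (10.4% called higher and 5.16% called lower). Atm Nes-cre cerebella had lower Stx1a, Syt6 and Vamp1 and higher Syt1 and Snap25. There 2 members rose and 3 fell, which was 8.62% against 10% (6.78% called higher and 3.25% called lower). The brain stem and deep nuclear sum was 23.0 to 31.9 FPKM in Aptx-/- (3 of 5 tested fell) and 28.3 to 49.6 in Atm Nes-cre cerebella (2 of 5 fell). The granule cell sum was 927 to 978 and 910 to 1045 FPKM, with 3 of 8 higher in each. Their part in these results was not tested.

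Stx1a fell in each single mutant, where its 4 libraries overlapped with those of the double mutants. All 4 were under the filter of 1 FPKM, so here too Stx1a entered the test through the controls, where it was high. Its log2 difference from controls was -1.17 (SE 0.18, adjusted p = 0.00127) in Aptx-/- and -1.14 (SE 0.18, adjusted p = 0.00208) in Atm Nes-cre cerebella, beside -0.98 in double mutants. The difference of double mutants from the mean of the single mutants was not called for Stx1a (0.17, SE 0.13, adjusted p = 0.628). Syt6 differed by -1.27 (adjusted p = 0.000116) in Aptx-/-, by -0.72 (adjusted p = 0.00768) in Atm Nes-cre and by -1.63 in double mutants. Without Atm Nes-cre library 1 its call in that genotype was lost (adjusted p = 0.0766). Syt1 rose by 0.42 (adjusted p = 0.000826) in Aptx-/- and by 0.36 (adjusted p = 0.00289) in Atm Nes-cre cerebella, at 98.0 and 99.5 FPKM and at 97.2 and 92.9 FPKM.

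Vamp1 was 30.1 and 26.3 FPKM in the Aptx-/- libraries and 29.3 and 36.9 in the Atm Nes-cre libraries. It fell in both, by 0.64 (adjusted p = 0.00382) and by 0.42 (adjusted p = 0.0385) on the log2 scale. The first call was lost without Aptx-/- library 2 (adjusted p = 0.0676) and the second without Atm Nes-cre library 1, control 1 or control 3 (0.087 to 0.333). Syt2, lower in double mutants, was 48.2 and 39.4 FPKM in Aptx-/- and 51.2 and 53.4 in Atm Nes-cre cerebella and was called in neither. In the Aptx-/- libraries the other calls were Syt13 (-0.64), Syt5 (-0.70), Syt3 (-0.46), Syt10 (0.46), Stx3 (0.34), Vamp3 (0.30), Snap23 (0.27) and Stx5a (0.21). Of the 12 Aptx-/- calls 8 were lost without some 1 library, and the count was 6 without Aptx-/- library 1 and 5 without library 2. In Atm Nes-cre the count was 2 without Atm Nes-cre library 1 and 9 without control 2. With quantile normalization 3 members rose and 7 fell in Aptx-/- (share of higher calls over all genes 50.6% in place of 66.9%), and 1 rose and 5 fell in Atm Nes-cre (48.3% in place of 67.6%).

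Snap25 was 364 and 351 FPKM in Atm Nes-cre cerebella, above all controls, Aptx-/- libraries (317 and 311) and double mutants. It rose against controls (0.27, adjusted p = 0.0165), and the call was lost without either Atm Nes-cre library (adjusted p = 0.0728 to 0.128). The summed level of 9 Purkinje cell markers was also high in both single mutants, at 759 to 836 FPKM against 558 to 657 in controls and 524 to 621 in double mutants. Against controls 6 of the 9 rose in Aptx-/- and 2 in Atm Nes-cre cerebella, with 0 falling in either. In double mutants 2 rose and 2 fell. The part of this sum in the Snap25 result was not tested.

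Double mutants were also set against the mean of the single mutants. Of 58 members 1 rose and 2 fell, which was 5.17% against 1.98% of all genes (1.13% called higher and 0.851% called lower). Sv2c, a minor SV2 form known from the basal ganglia, was 3.01 and 3.58 FPKM in Aptx-/-, 2.57 and 3.37 in Atm Nes-cre and 4.42, 5.04 and 6.39 (lowest, median, highest) in double mutants. Double mutants lay above all single mutants (0.57, SE 0.11, adjusted p = 0.015) and overlapped with controls (3.90, 4.83, 4.97 and 3.34 FPKM). Syt6 was lower (-0.63, SE 0.11, adjusted p = 0.00729), as was Snap25 (-0.20, adjusted p = 0.0418). The Sv2c call was lost without Aptx-/- library 1 or Atm Nes-cre library 1 (adjusted p = 0.0786 to 0.0957) and the Snap25 call without any 1 of 8 libraries (0.0768 to 0.157), and without Aptx-/- library 1 or Atm Nes-cre library 1 the count was 1. With the replicate number as a block none was called by limma, and 5 members had an unadjusted p below 0.05.

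The cortical comparison set 6 double mutants against 4 controls. Stx1a, which fell in cerebellum, rose in cortex together with Snap91 and Syt1, and Sv2c, Syt9 and Vamp1 fell. Of 57 members tested 22 rose and 11 fell. These 33 made up 57.9% of the members, against 38.8% of all 12815 genes tested (24.3% called higher and 14.5% called lower). Groups did not overlap for 27 of 57 members, against 27.1% of all genes. Quantile normalization gave 16 higher and 14 lower (share of higher calls over all genes 49.6% in place of 62.6%). With the Ddx3y covariate 15 rose and 3 fell, and a count of 18 was left. Leaving out double mutant 6 gave 32 and leaving out control 4 gave 30. The excitatory and inhibitory neuron sums were higher and the oligodendrocyte sum lower in these double mutants, as given above, and their part in the cortical results was not tested.

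Of the SNARE proteins in cortex, Stx1a was 40.4, 36.9, 34.1 and 37.2 FPKM in controls 1 to 4 and 47.8, 56.8 and 62.1 (lowest, median, highest) in double mutants. The groups did not overlap (0.60, SE 0.07, adjusted p = 3.91e-05). Snap25 was 322, 328, 313 and 288 FPKM and 317, 349 and 367. These groups overlapped, and the call of Snap25 (0.15, adjusted p = 0.0495) was lost without any 1 of 8 libraries (adjusted p = 0.0519 to 0.152; all but double mutant 4 and control 2) and its sign turned with quantile normalization (-0.04).

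Vamp1 and Vamp2 both fell in cortex. Vamp1 was 28.4, 29.0, 30.7 and 29.7 FPKM in controls and 19.2, 22.7 and 24.8 in double mutants, without overlap (-0.40, SE 0.07, adjusted p = 0.000653). Vamp2 was 65.3, 69.1, 66.8 and 51.5 FPKM in controls and 48.9, 51.4 and 57.0 in double mutants. Control 4 lay among the double mutants, and the call (-0.26, SE 0.07, adjusted p = 0.0154) was lost without control 2 or 3 (adjusted p = 0.0523 to 0.0565) and with the Ddx3y covariate (0.109). With Vamp3 (-0.24) 3 of 6 tested Vamp genes fell and 0 rose, but the Vamp3 call too was lost with that covariate (0.139). Vamp1 held 29.5% to 36.6% of its pair in controls and 27.2% to 31.6% in double mutants, which overlapped.

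Among regulators of the fusion bundle in cortex, Stxbp5, or tomosyn, which holds SNAREs back, rose by 0.17 (adjusted p = 0.00844), a call that was lost with the Ddx3y covariate (0.113). Cplx1 was 108, 97.2, 98.7 and 92.2 FPKM in controls and 107, 113 and 135 in double mutants (0.23, adjusted p = 0.0129). Cplx2 was 121, 120, 126 and 114 FPKM and 141, 143 and 158 (0.28, adjusted p = 0.000444). The groups overlapped for Cplx1 and not for Cplx2. All 3 complexins tested rose, with Cplx3 at 0.20 (adjusted p = 0.017), but Cplx1 and Cplx2 were not called after quantile normalization (adjusted p = 0.437 and 0.09) or Cplx3 with the Ddx3y covariate (0.145).

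Calcium sensors split in cortex as well. Syt1 was 261, 253, 240 and 222 FPKM in controls and 302, 307 and 319 in double mutants, without overlap (0.34, SE 0.05, adjusted p = 0.000161). Syt2 was 8.92, 8.69, 10.3 and 9.03 FPKM and 6.54, 8.01 and 8.66. These groups barely failed to overlap, and the call (-0.20, adjusted p = 0.031) was lost without control 3 or 4 (adjusted p = 0.0507 to 0.112). Control 3, the highest for Syt2, also had a granule cell sum of 64.1 FPKM. That sum was 40.5 to 44.9 in the other cortical controls and 42.1 to 45.1 in double mutants. Its part in the Syt2 result was not tested. Syt9, a fast calcium sensor in mouse limbic neurons, was 2.83, 3.23, 3.15 and 3.43 FPKM in controls and 1.34, 1.79 and 2.66 in double mutants. The groups did not overlap (-0.51, SE 0.12, adjusted p = 0.00607), and the call was lost with the Ddx3y covariate (0.138). Syt6, which fell most in cerebellum, was 4.54 to 5.42 FPKM in cortical controls and 4.66 to 6.26 in double mutants and was not called. Syt5 rose (0.39, adjusted p = 0.000127) and Syt10 fell (-0.35, adjusted p = 0.00322). Of the 7 other synaptotagmins tested 4 rose and 1 fell, with Syt16 at 0.32 (adjusted p = 0.00111), from 19.3 to 23.9 FPKM to 25.1 to 28.8. The Syt17 call was lost without control 3 (adjusted p = 0.0717) and the Syt14 call without any 1 of 8 libraries (0.0505 to 0.155; all but double mutants 5 and 6). With the Ddx3y covariate the calls of Syt2, Syt10, Syt11, Syt14 and Syt17 were lost (adjusted p = 0.0514 to 0.249).

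Vesicle proteins and scaffolds completed the cortical calls. Sv2c was 7.68, 7.19, 9.06 and 5.52 FPKM in controls and 2.81, 3.97 and 5.31 in double mutants. Every double mutant lay below every control (-0.71, SE 0.13, adjusted p = 0.0013). Sv2a was 76.2, 74.0, 74.9 and 67.2 FPKM and 78.1, 83.4 and 88.1 (0.19, adjusted p = 0.00825). Sv2b was 98.7, 88.1, 84.4 and 88.1 FPKM and 94.9, 99.3 and 108 (0.16, adjusted p = 0.0207). The groups overlapped for Sv2b and not for Sv2a. Both calls were lost with the Ddx3y covariate (adjusted p = 0.0785 and 0.156) and with quantile normalization, where Sv2a was 0.04 and Sv2b turned to -0.0028, and Sv2b was lost without control 2 or 3 (adjusted p = 0.056 to 0.0784). Syn2 was 84.9, 82.9, 81.1 and 80.1 FPKM in controls and 94.1, 98.5 and 106 in double mutants, without overlap (0.26, SE 0.04, adjusted p = 0.000295). Syn1 was 23.0, 23.9, 23.3 and 18.4 FPKM and 20.6, 21.7 and 25.1, and was not called (0.01, 95% interval -0.15 to 0.17). Its groups overlapped, with control 4 the lowest. Rims1 was 39.7, 41.9, 42.3 and 38.3 FPKM and 46.1, 47.6 and 49.1, without overlap (0.23, adjusted p = 0.000821), Rims4 rose by 0.26, and Rims3 fell by 0.31.

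Members of membrane recycling and internal transport were among the largest cortical calls. Snap91 was 48.8 to 55.1 FPKM in controls and 67.3 to 77.3 in double mutants and rose by 0.48 (SE 0.05, adjusted p = 1.42e-05). Snap47 rose by 0.34 and Stx6, a syntaxin of the trans-Golgi network, by 0.35 (adjusted p = 0.000111). Stx17, which takes part in autophagosome fusion, and Stx2 each fell by 0.28, and both calls were lost with the Ddx3y covariate (adjusted p = 0.0873 and 0.159).

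Whether the genotype difference itself differed between tissues was tested in the 20 double-mutant and control libraries of both. Of 59 members 10 had a higher and 13 a lower difference in cerebellum than in cortex, which was 39.0% against 27.3% of all genes (15.4% called higher and 11.9% called lower). Rescaling to the median left 7 and 14, with 45.7% of the calls over all genes higher in place of 56.3%. For Syt6 the difference between tissues was -1.73 (SE 0.12, adjusted p = 1.33e-08). For Stx1a it was -1.58 (SE 0.16, adjusted p = 1.26e-06), the gene falling in cerebellum and rising in cortex. Syt5 (-0.88) and Syt16 (-0.998) likewise fell in cerebellum and rose in cortex. The opposite order held for Syt10 (0.65, adjusted p = 0.000389) and Vamp3 (0.53, adjusted p = 9.62e-05), which rose in cerebellum and fell in cortex. Sv2c (0.94, adjusted p = 0.00107) fell in cortex and was uncalled in cerebellum.

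Syt1, Rims1 and Stx12 rose in both tissues and Rims3, Syt2 and Vamp1 fell in both, and for these 6 the difference between tissues was not called. With quantile normalization that of Syt1 was called (0.18, adjusted p = 0.0358). With a block for each pair of same-numbered cerebellum and cortex 28 members were called. The 5 calls it added included Vamp1 (-0.25, adjusted p = 0.0477), Vamp2 (0.30, 0.019), Cplx1 (-0.34, 0.0198) and Stxbp2 (0.28, 0.0407). Without both tissues of double mutant 6, an alternative added after the data were seen, 19 were called. The calls of Stx17, Stxbp4 and Sv2a were each lost without any 1 of 15 or 16 of the 20 libraries, at adjusted p of 0.0507 to 0.123. That of Syt12 was lost without cerebellar control 2 or cortical control 1 (0.0625 to 0.0682), and that of Syt14 without cerebellar control 1 or 3 or cortical control 2 (0.063 to 0.0807).

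**Figure D4:**
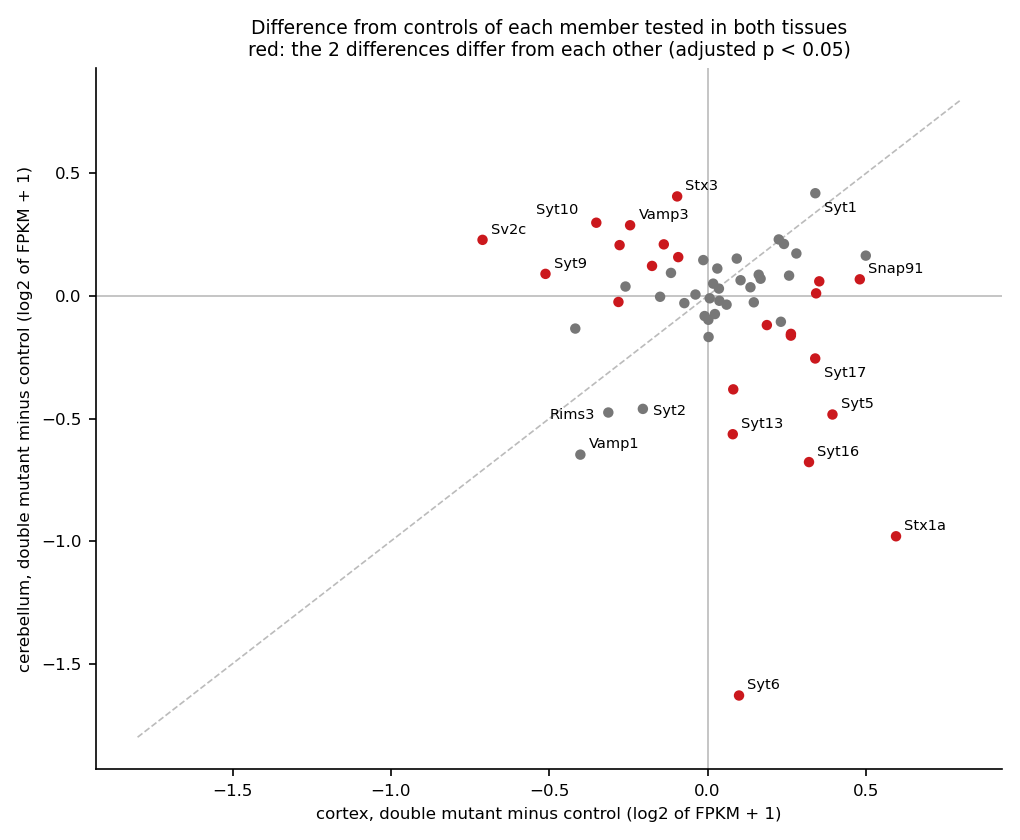
Log2 difference of double mutants from controls in cerebellum (vertical) against cortex (horizontal) for each member tested in both tissues, with the dashed line marking equal differences and red marking members whose difference between tissues was called. Stx1a (-0.98 and 0.60) and Syt6 (-1.63 in cerebellum) lie farthest from the line, whereas Vamp1 (-0.65 and -0.40) and Syt1 (0.42 and 0.34) lie in the quadrants of shared direction.

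Release also needs calcium channels, active zone scaffolds, vesicle pumps and the endocytic machinery, and 71 further genes of these kinds were counted beside the members. In double-mutant cerebellum 9 of 68 tested rose and 9 fell, which was 26.5% against 32.4% of all genes. Cacna1e, the pore of R-type calcium channels, rose by 0.83 (adjusted p = 1.37e-06), Synpr, a vesicle membrane protein, by 0.60 (adjusted p = 0.000601), and Picalm, a clathrin assembly protein, by 0.39 (adjusted p = 2.53e-05), while the calcium sensor Doc2b fell by 0.63 (adjusted p = 0.000631). In Aptx-/- cerebella 6 rose and 3 fell (13.2% against 15.6%), and in Atm Nes-cre cerebella 3 rose and 1 fell (5.88% against 10%). In cortex 27 of 68 rose and 10 fell, which was 54.4% against 38.8%. Nsf, the ATPase that takes spent SNARE bundles apart, rose by 0.45 (adjusted p = 1.52e-05), the clathrin adaptor subunits Ap2a1 and Ap2m1 by 0.49 and 0.36, and the vesicle GTPase Rab3b by 0.77 (adjusted p = 2.95e-05). The difference between tissues was called higher for 8 and lower for 19 of 69, which was 39.1% against 27.3%. Slc17a6, Slc17a7, Slc32a1 and Cadps2 stood in this list and in the cell type lists.

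**Figure D5:**
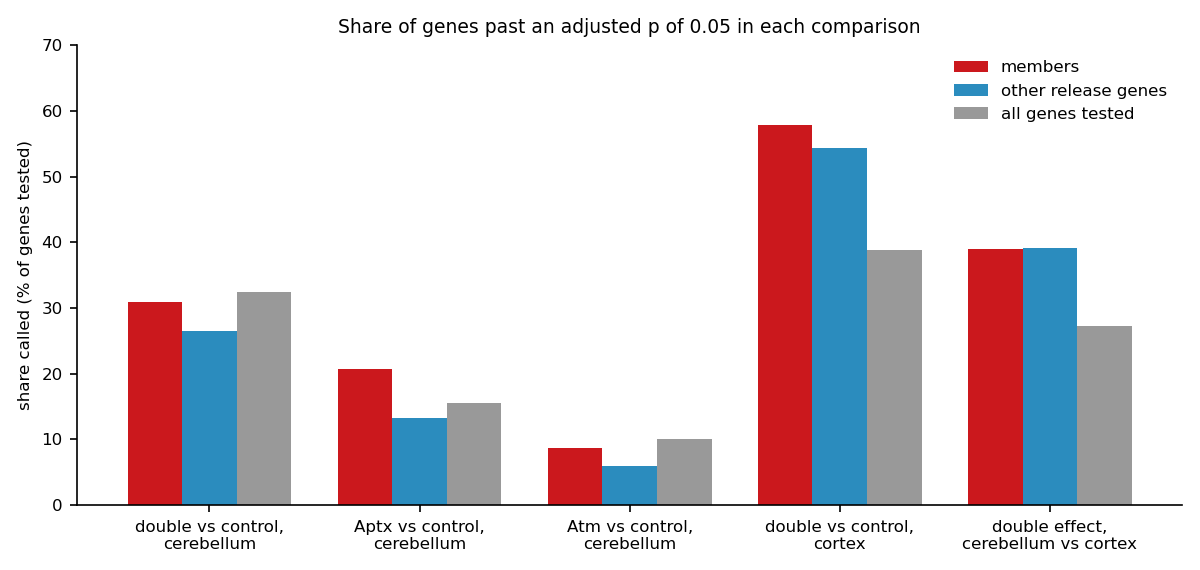
Share of tested genes past an adjusted p of 0.05 (percent) in 5 comparisons, with bars for the 63 members, for the other release genes and for all genes tested. Members and all genes stand at 31.0% and 32.4% in double-mutant cerebellum and at 57.9% and 38.8% in double-mutant cortex.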

How the data were processed

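The authors prepared stranded total RNA libraries after ribosomal RNA removal, sequenced them on a HiSeq instrument, mapped reads to mm9 and counted them per gene, with BWA 0.5.10 and HTSeq (no version) in their processing notes. The deposited values are FPKM, made by the authors per library, with 1 table of 22562 genes per tissue. No counts were used, so no counting interval was computed. Low values shared read steps in 9 cerebellum and 5 cortex libraries, with a relative depth of 0.641 to 1.18 and 0.939 to 1.33. Values of the 4 controls and of double mutant 6 in each tissue carried more than 10 digits and no such steps. How they were computed is not given in the sources used here. Every single mutant and double mutants 1 to 5 of each tissue differed from the controls in this format, so there genotype and format cannot be told apart. Double mutant 6 shared the format of the controls. It lay beyond all controls on the called side for 18 of 18 members called in cerebellum and 32 of 33 in cortex. These members were called with double mutant 6 in the group, so its position is no test of the format.

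Values were analysed as log2(FPKM + 1) with limma 3.58.1 in R 4.3.3 (moderated by empirical Bayes with a trend on intensity, two-sided tests, Benjamini-Hochberg over all genes tested), after tests on simulated data. Genes needed 1 FPKM in at least 2 of 14 cerebellum libraries, or in at least 4 of 10 cortex libraries or of the 20 libraries of the fit across tissues. The 4 cerebellar genotypes shared 1 fit. Intervals of 95% use the degrees of freedom of the fit. Alternatives were a pseudocount of 0.1, no filter, quantile normalization, rescaling to the median, no trend, a replicate block, each library left out, only the groups compared, a Ddx3y covariate and the joint filter of both tissues. Across tissues the replicate numbers paired the libraries. Deviations from the group means correlated at 0.225 to 0.461 in double mutants, which share a code in the labels, and at 0.111 to 0.282 in controls, each best with its own number. Values for every library (for double mutants the lowest, median and highest) are given for core genes of the machinery and for members called with a log2 difference of at least 0.5 in a double-mutant comparison. Between tissues the 6 largest called differences in each direction are given. Up to 4 other release genes with the smallest p are named per comparison. Some members and markers are not reported here by name and stay in the counts. Members and lists were chosen with earlier results of these data known. Promoters came from RefSeq (GRCm38.p6), matched by symbol, and mm9 coordinates of the files were not mixed with them.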

Additional observations from a re-analysis of the deposited data

Results flagged for a closer look

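In 4 of 76 groups of 4 or more libraries checked over 19 genes, 1 library lay far from the others, where chance gives about 1 in 20. Cortex control 4 was the lowest control for Syn1 at 18.4 FPKM (others 23.0 to 23.9). The other cases were Snap25 at 312 FPKM in cerebellar double mutant 6 (283 to 293), Syt16 at 1.21 in cerebellar double mutant 4 (0.334 to 0.546) and Syt2 at 6.54 in cortical double mutant 5 (7.96 to 8.66).

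The log2 difference of double mutants from controls differed between tissues (limma, adjusted p below 0.05 for the difference of differences) for 23 members. It was lower in cerebellum for Syt6 (-1.73), Stx1a (-1.58), Syt16 (-0.998), Syt5 (-0.88), Syt13 (-0.64), Syt17 (-0.60), Syt3 (-0.46), Syn2 (-0.42), Syt12 (-0.42), Snap91 (-0.41), Snap47 (-0.33), Sv2a (-0.31) and Stx6 (-0.29). It was higher in cerebellum for Sv2c (0.94), Syt10 (0.65), Syt9 (0.60), Vamp3 (0.53), Stx3 (0.50), Stx2 (0.49), Snap23 (0.35), Syt14 (0.30), Stx17 (0.26) and Stxbp4 (0.25).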

How the results depend on the processing

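Among members called in each comparison, the call was kept under every alternative run by 13 of 18 in double-mutant against control cerebellum, 4 of 12 in Aptx-/-, 2 of 5 in Atm Nes-cre, 0 of 3 against the single mutants, 15 of 33 in cortex, 17 of 23 between tissues, 38 of 44 between tissues in controls and 46 of 53 between tissues in double mutants. With each library left out in turn the counts ran from 16 to 20, 5 to 12, 2 to 9, 1 to 3, 28 to 32, 19 to 23, 40 to 44 and 51 to 54 in that order. Without control 2 the Atm Nes-cre count was 9 and without Atm Nes-cre library 1 it was 2. The cortex count was 18 with the Ddx3y covariate. With the replicate number as a block the count against the single mutants was 0 (limma, 5 with an unadjusted p below 0.05 and 7 genes called over all), and the other counts were 15, 11, 6, 24, 28, 47 and 54. Within a tissue the numbers did not pair the libraries (correlations -0.179 to 0.337). The block across tissues added Syt3, Stxbp2 and Syn3 in controls and 1 member in double mutants, and ended no call. Signs turned for called Snap25 (-0.0382), Sv2b (-0.00278) and Syt11 (-0.0255) in cortex under quantile normalization. They also turned for uncalled members near 0. In cerebellum, values without 1 library ran from -0.206 to 0.00195 for Cplx1, from -0.139 to 0.104 for Syn1 (block 0.00198) and from -0.0605 to 0.126 for Vamp2 (quantile -0.0390, median -0.0170), and Sv2b was -0.00384 with the Ddx3y covariate. In cortex they ran from -0.0754 to 0.0446 for Syn1 (Ddx3y -0.0937, quantile -0.0650, block -0.00189, median -0.0202). The causes of these shifts were not tested. Unknown depth and 2 libraries per single mutant limit the precision, as do levels near 1 FPKM, such as those of Stx1a and Syt16 in cerebellum.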

Other observations

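Stxbp2, which encodes Munc18-2, known from secretion outside neurons, varied among the controls in both tissues. It was 3.65, 2.06, 2.05 and 4.48 FPKM in cerebellar controls 1 to 4 and 4.82, 2.21, 2.36 and 5.47 in cortical controls 1 to 4. Controls 1 and 4 were the high ones in each tissue, and every mutant library lay between 2.05 and 3.03 FPKM. The study's text names Stxbp2 among Purkinje cell-specific genes that had retained introns and lower expression in double mutants. For its splicing analysis the study made polyadenylated RNA libraries from additional brain tissue, whereas the values here come from its total RNA libraries. In these total RNA libraries Stxbp2 was not called in double-mutant cerebellum, and intron retention was not measured.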
